A study of Mus musculus with 12 samples.

Results

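The variable (V) segments of the immunoglobulin kappa light chain locus were described in RNA from natural killer (NK) cells sorted from mouse pancreatic tumours. The segments were all rows of the count table whose symbol begins with Igkv and whose raw counts summed to at least 30 over the 12 libraries. They were thus chosen by their total counts, with no regard to group. There were 99 such segments among 103 Igkv rows, in a table of 27179 genes. Their totals ran from 35 to 67094 counts, with a median of 4756 counts. The libraries formed 4 groups of 3, all from wild-type tumour-bearing mice, with cells sorted on day 21. Mice of the cGAMP group received 10 µg of cGAMP intravenously, from day 8 and every 3 days, for 4 injections. The anti-IL-35 group received 200 µg of an antibody that blocks the cytokine IL-35 intraperitoneally, from day 8 and every 3 days, for 3 injections. The combination group received both agents. The controls received IgG, and PBS was the vehicle for cGAMP. cGAMP is the natural ligand of STING, through which cells sense DNA in the cytosol. Neither the tumour cells that were implanted nor the gate of the sort was given in the sources used here.

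A kappa light chain gene is assembled in a developing B cell by joining a single V segment to a single joining (J) segment, and the joined VJ exon is spliced to the constant exon Igkc. The V segment encodes most of the antigen-binding surface of the chain, so the mix of V segments in kappa mRNA reflects which B cell and plasma cell clones supplied it. A plasma cell holds far more light chain mRNA than a resting B cell, and a few expanded clones can therefore lead the mix. NK cells do not assemble kappa genes. In these libraries all 10 listed NK cell genes were detected, with summed levels of 3347 to 3978 CPM (counts per 1000000 counts of a library after TMM scaling) over the 12 libraries. All 15 listed B cell genes were detected too. Their sums were 1689 to 1763 CPM in cGAMP libraries, 1148 to 1200 CPM in anti-IL-35 libraries, 1563 to 1569 CPM in combination libraries and 1772 to 1811 CPM in IgG libraries. The part of B cells and plasma cells in the kappa values below was not tested. In these bulk libraries fewer cells of a type and less RNA per cell cannot be told apart. The labels do not state whether the libraries of a group were separate mice, so p-values measure the spread between libraries only, which may be technical. The treatment of a group and the particular mice that made it up cannot be told apart.

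The sequences of the segments with the highest use show how alike they are and where they differ. All are from the GENCODE M21 annotation of GRCm38 (mm10), 5′ to 3′ on the coding strand. The segment that led the cGAMP and combination libraries, Igkv3-4 (gene 626347, chromosome 6, plus strand), has as its nearest relative Igkv3-3, and the V exons of this pair differed at 19 of 310 aligned bases. The last 300 bases of each V exon are printed here with the differing bases in capitals, since reads of a close copy could be assigned to either gene. They lie at chr6:70672078-70672377 for Igkv3-4 and at chr6:70687235-70687534 for Igkv3-3.
Igkv3-4: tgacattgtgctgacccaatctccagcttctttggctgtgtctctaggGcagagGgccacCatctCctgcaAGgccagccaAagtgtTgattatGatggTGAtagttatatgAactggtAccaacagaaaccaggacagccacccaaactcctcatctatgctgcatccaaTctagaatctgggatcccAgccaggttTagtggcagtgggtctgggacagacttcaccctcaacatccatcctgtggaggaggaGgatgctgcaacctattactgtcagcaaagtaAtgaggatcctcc
Igkv3-3: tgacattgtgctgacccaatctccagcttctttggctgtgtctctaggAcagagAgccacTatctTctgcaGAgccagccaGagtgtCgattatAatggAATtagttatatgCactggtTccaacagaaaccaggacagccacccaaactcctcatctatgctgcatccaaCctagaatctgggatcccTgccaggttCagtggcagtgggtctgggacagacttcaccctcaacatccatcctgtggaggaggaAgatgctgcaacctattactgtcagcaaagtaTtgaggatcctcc
Igkv3-4 held 67094 counts over the 12 libraries and Igkv3-3 held 38. Of the 50-base windows of the Igkv3-4 V exon, 72.0% occurred in no other GENCODE Igkv transcript.

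The end of a V segment codes for the start of the third complementarity-determining loop, which touches antigen and follows a conserved cysteine. The last 60 bases of the V exons of 8 segments that the results turn on are printed with the bases after the cysteine codon in capitals.
Igkv3-4: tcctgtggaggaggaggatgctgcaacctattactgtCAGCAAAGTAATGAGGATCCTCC
Igkv1-117: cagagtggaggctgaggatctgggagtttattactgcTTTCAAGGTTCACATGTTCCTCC
Igkv1-110: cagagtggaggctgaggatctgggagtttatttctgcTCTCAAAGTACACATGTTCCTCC
Igkv5-39: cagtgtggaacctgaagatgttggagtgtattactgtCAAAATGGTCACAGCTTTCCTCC
Igkv10-96: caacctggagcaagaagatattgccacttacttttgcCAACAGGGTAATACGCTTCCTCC
Igkv4-57-1: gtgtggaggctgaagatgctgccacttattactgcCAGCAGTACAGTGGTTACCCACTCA
Igkv4-62: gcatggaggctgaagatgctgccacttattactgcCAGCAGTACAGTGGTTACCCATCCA
Igkv8-21: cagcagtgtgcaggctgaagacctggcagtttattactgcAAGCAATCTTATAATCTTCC
V exons of 98 of the 99 segments matched this annotation and were 293 to 322 bases long. The median identity of a segment to its nearest relative was 95.05%. In 23 segments every 50-base window was unique among Igkv transcripts, and in 16 segments under 50% of windows were. Igkv1-117 and Igkv1-110 were 96.8% identical, with 54.2% and 53.4% of windows unique, and Igkv4-62 was 95.7% identical to Igkv4-78, with 57.1% unique. How the authors' counting treated reads that match several places was not given in the sources used here, so counts of such pairs are uncertain.

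Kappa V transcripts were about as abundant in cGAMP and combination libraries as in IgG libraries and much scarcer in anti-IL-35 libraries. Together the 99 segments took 0.397%, 0.418% and 0.412% of all counts in the cGAMP libraries. They took 0.225%, 0.224% and 0.226% in the anti-IL-35 libraries. The shares were 0.448%, 0.449% and 0.447% in the combination libraries, against 0.436%, 0.447% and 0.436% in the IgG libraries. The anti-IL-35 libraries stood apart from all others, the cGAMP libraries lay just below the IgG libraries, and the combination libraries lay just above them. Without Igkv3-4 the mean share was 0.356% in cGAMP and 0.388% in combination libraries, against 0.428% in IgG libraries. On this scale the combination then lay below IgG. These shares are of unscaled library totals, whereas CPM values use TMM scaling. TMM factors were 1.07 to 1.073 in IgG, 0.961 to 0.9621 in combination and 0.9861 to 0.9974 in cGAMP libraries. The small differences from IgG of cGAMP, and of the combination without Igkv3-4, therefore depend on the scaling. These sums are descriptions of the libraries and carry no test. Relative to the constant exon Igkc, which every kappa mRNA holds, V counts hardly moved. There were 78.3, 80.9 and 77.2 Igkv counts per 100 Igkc counts in cGAMP libraries and 79.2, 75.8 and 79.1 in anti-IL-35 libraries. In combination libraries there were 84.2, 82.9 and 84.0, against 75.9, 82.3 and 78.0 in IgG libraries. The combination libraries were all above the IgG libraries, and the other groups overlapped with them.

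**Figure D1:**
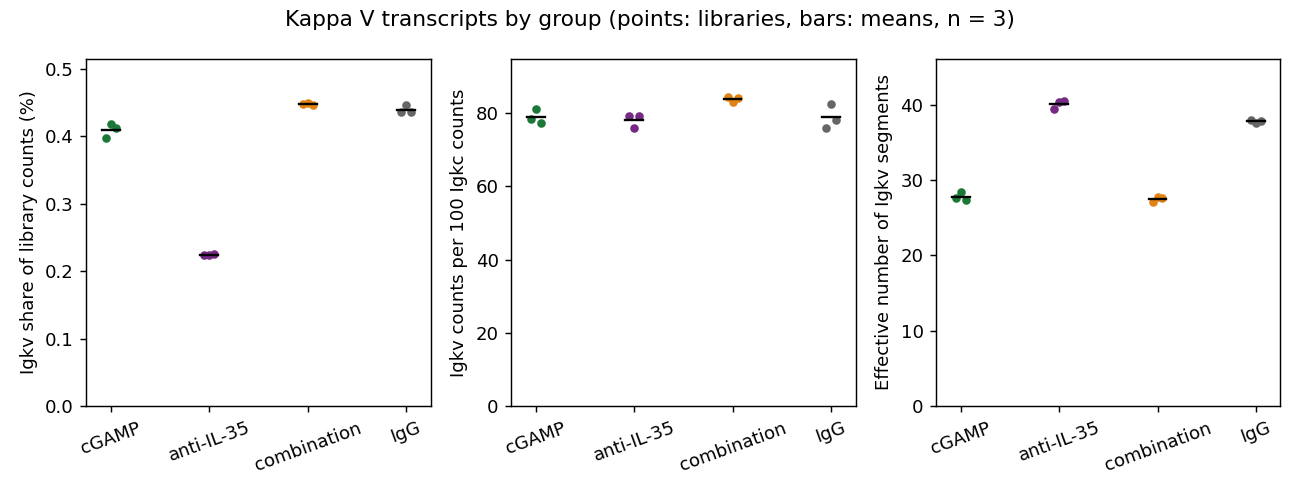
Igkv share of library counts (left, %), Igkv counts per 100 Igkc counts (middle) and the effective number of segments, the inverse of the summed squared shares (right), in cGAMP, anti-IL-35, combination and IgG libraries. Points are libraries and bars are means of 3. The anti-IL-35 libraries were lowest in total, at 0.224% to 0.226% of counts, and the cGAMP and combination libraries were lowest in effective number, at 27.1 to 28.4 segments.

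Igkc itself averaged 5242 ± 168 CPM in cGAMP libraries, 2945 ± 61.0 CPM in anti-IL-35 libraries and 5569 ± 54.8 CPM in combination libraries, against 5217 ± 147 CPM in IgG libraries (SD, n = 3 each). In an edgeR quasi-likelihood fit of all genes, its log2 fold change against IgG was -0.82 ± 0.03 (SE) with anti-IL-35 (adjusted p = 2.08e-27). It was 0.09 ± 0.03 with the combination (adjusted p = 0.0167) and 0.01 ± 0.03 with cGAMP (adjusted p = 0.927). So Igkc fell with the antibody and rose slightly with the combination, where it lay at -0.09 relative to the Igkv total (adjusted p = 0.0432). Summed lambda, heavy chain, B cell and plasma cell genes were likewise lowest in anti-IL-35 libraries. Summed germinal centre genes were highest there, at 163 to 177 CPM, against 93.6 to 98.2 CPM in IgG libraries. Of these 6 genes, 2 rose and 1 fell with anti-IL-35, with a median log2 fold change of 0.02. Lambda light chain genes summed to 760 ± 4.06 CPM in cGAMP libraries, 372 ± 11.9 CPM in anti-IL-35 libraries, 740 ± 13.8 CPM in combination libraries and 720 ± 10.4 CPM in IgG libraries (SD, n = 3 each). For heavy chain constant genes the sums were 11411 ± 73.9 CPM with cGAMP, 6367 ± 40.0 CPM with anti-IL-35, 12426 ± 134 CPM with the combination and 11610 ± 126 CPM with IgG. Of 15 B cell genes, 13 fell and 1 rose with anti-IL-35 (median log2 fold change -0.76, against -0.024 over all genes tested). With cGAMP 3 of them fell and none rose, and with the combination 10 fell and none rose. Of 12 plasma cell genes, 8 fell and 1 rose with anti-IL-35, none changed with cGAMP, and 1 rose and 1 fell with the combination. Over all genes tested, 15.7% rose and 9.32% fell with anti-IL-35. The shares were 9.37% and 3.56% with cGAMP, and 15.7% and 7.5% with the combination. Jchain, which joins IgM and IgA into polymers, fell by 0.78 ± 0.04 on the log2 scale with anti-IL-35 (adjusted p = 2.61e-19). Mzb1, a chaperone of plasma cells, fell by 0.87 ± 0.07 (adjusted p = 2.89e-14). Bcl6, which also serves germinal centre B cells, rose by 1.20 ± 0.08 (adjusted p = 2.03e-18). The summed plasma cell genes were at 2162 to 2214 CPM in cGAMP libraries, 1454 to 1603 CPM in anti-IL-35 libraries, 2215 to 2325 CPM in combination libraries and 2304 to 2314 CPM in IgG libraries.

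Of the individual segments, Igkv3-4 was the most abundant over all groups, and its level was far higher in the cGAMP and combination libraries than in the others. Its levels were 518.5, 544 and 554 CPM in cGAMP libraries and 40.5, 40.1 and 38.8 CPM in anti-IL-35 libraries. They were 629.1, 614.7 and 614.5 CPM in combination libraries, against 104, 114.4 and 111.5 CPM in IgG libraries. No library of any group overlapped with another group. The log2 fold change against IgG was 2.29 ± 0.05 with cGAMP (adjusted p = 2.11e-36), -1.47 ± 0.05 with anti-IL-35 (adjusted p = 3.53e-28) and 2.49 ± 0.05 with the combination (adjusted p = 9.41e-39). These comparisons share the IgG libraries. As a share of all Igkv counts, Igkv3-4 took 13.0 ± 0.182% in cGAMP libraries, 1.73 ± 0.053% in anti-IL-35 libraries, 13.3 ± 0.168% in combination libraries and 2.68 ± 0.109% in IgG libraries (SD, n = 3 each). It thus supplied more than any other segment in the cGAMP and combination libraries. Between the combination and cGAMP its level was higher by 0.20 ± 0.04 on the log2 scale (adjusted p = 0.000622). Its share, tested in a fit that scaled libraries on their summed Igkv counts, differed by 0.03 ± 0.05 (adjusted p = 0.711). Such a test of share is called usage from here on. The Igkv total includes Igkv3-4, so a larger share of that segment lowers the usage of every other one. Its part in the usage calls below was not tested.

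The other leading segments varied less. Igkv5-39 led the IgG libraries with 6.86 ± 0.259% of Igkv counts, next to Igkv4-57-1 with 6.32 ± 0.181% (SD, n = 3 each). In anti-IL-35 libraries 3 segments lay close together, Igkv10-96 with 6.16 ± 0.425%, Igkv1-117 with 5.72 ± 0.389% and Igkv1-110 with 5.65 ± 0.191% (SD, n = 3 each). Their ranges over the 3 libraries, 5.83% to 6.64%, 5.28% to 6.03% and 5.49% to 5.86%, overlapped, so the order among them is not fixed by these libraries. Igkv1-117 was the second segment of the cGAMP libraries, with 5.45 ± 0.255%, followed by Igkv5-39 with 5.17 ± 0.0894% (SD, n = 3 each). The 10 leading segments of a library took 43.9% to 45.0% of Igkv counts in cGAMP libraries, 37.5% to 38.4% in anti-IL-35 libraries, 44.3% to 44.6% in combination libraries and 41.1% to 41.6% in IgG libraries. Shares are of counts and were not divided by length, and the V exons differ little in length.

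**Figure D2:**
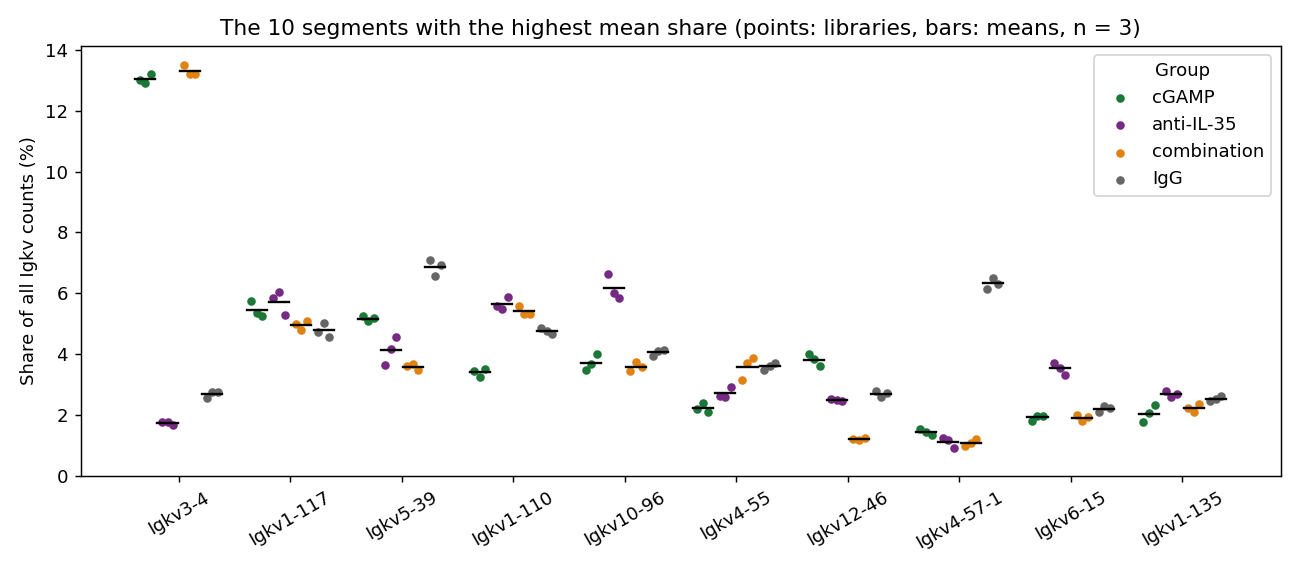
Share of all Igkv counts (%) of the 10 segments with the highest mean share over the 4 groups. Points are libraries, bars are means of 3, and groups run from cGAMP through anti-IL-35 and combination to IgG. Igkv3-4 took 12.9% to 13.5% in cGAMP and combination libraries and 1.67% to 2.74% in the others, and Igkv4-57-1 was above 6% in IgG libraries only.

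The breadth of use was given as an effective number of segments, which would equal the number of segments if all had the same share. It was 27.6, 28.4 and 27.4 in cGAMP libraries and 39.4, 40.3 and 40.5 in anti-IL-35 libraries. It was 27.1, 27.8 and 27.6 in combination libraries, against 38.0, 37.5 and 37.8 in IgG libraries. The cGAMP and combination libraries were lower than the rest, and the anti-IL-35 libraries were the highest. The low place of the cGAMP and combination libraries rested on Igkv3-4, while anti-IL-35 libraries stayed above IgG libraries without it. With that segment left out of the counts, an alternative chosen after seeing the data, the number was 39.3 to 40.7 in cGAMP libraries, 38.5 to 39.6 in anti-IL-35 libraries, 39.9 to 40.4 in combination libraries and 36.5 to 37.0 in IgG libraries. Counts were found for 92 to 93 of the segments in cGAMP libraries, 89 to 94 in anti-IL-35 libraries, 94 to 97 in combination libraries and 97 to 99 in IgG libraries. In all, 81 of the 99 segments had counts in all 12 libraries.

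With cGAMP, individual segments moved in both directions while the total hardly changed. Of the 96 segments that passed the filter on low counts, 27 rose and 35 fell at an adjusted p under 0.05. Of all 14182 genes tested, 9.37% rose and 3.56% fell. The median log2 fold change was -0.02 over the segments, and 0.02 over all genes tested. Usage gave nearly the same picture, with 27 segments higher and 34 lower, where 12% of all genes were called either way. Of the segments, 61 were called in the same direction on both scales.

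After Igkv3-4, the segments with the largest rises with cGAMP, among those averaging at least 5 CPM in the higher group, were Igkv4-61, Igkv1-122 and Igkv9-123. Igkv4-61 had 46.6, 57.4 and 57.7 CPM in cGAMP libraries, against 16.6, 15.5 and 17.6 CPM in IgG libraries. Its log2 fold change was 1.71 ± 0.12 (adjusted p = 5.35e-16). Igkv4-61 is 96.7% identical to Igkv4-54, and 51.6% of its windows were unique. Igkv1-122 had 24.0, 25.7 and 25.0 CPM in cGAMP libraries and 8.18, 8.21 and 11.3 CPM in IgG libraries, a log2 fold change of 1.43 ± 0.17 (adjusted p = 1.3e-08). Igkv9-123 had 12.3, 14.8 and 13.3 CPM in cGAMP libraries and 6.75, 5.43 and 6.57 CPM in IgG libraries, a log2 fold change of 1.11 ± 0.19 (adjusted p = 2.49e-05). All 3 cGAMP libraries lay above all 3 IgG libraries for each of these segments, which was a condition for naming them. Igkv12-46, among the leading segments of the cGAMP libraries, took 4.01%, 3.82% and 3.59% of Igkv counts there, against 2.79%, 2.58% and 2.71% in IgG libraries. It rose by 0.51 ± 0.06 on the log2 scale (adjusted p = 1.41e-08).

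Among segments averaging at least 5 CPM in the higher group, the largest falls with cGAMP were in Igkv8-21, Igkv4-57-1, Igkv4-79 and Igkv6-14. Igkv8-21 had 2.66, 4.87 and 4.44 CPM in cGAMP libraries, against 55.8, 59.5 and 57.6 CPM in IgG libraries. The log2 fold change was -3.83 ± 0.16 (adjusted p = 1.74e-24). All 3 cGAMP libraries lay below all 3 IgG libraries, as the rule for naming required. Igkv4-57-1 had 61.7, 59.9 and 56.5 CPM in cGAMP libraries, against 250.5, 271.8 and 255.9 CPM in IgG libraries, a log2 fold change of -2.13 ± 0.08 (adjusted p = 3.97e-27). This segment, the second of the IgG libraries, was at a far lower level in every treated library. Igkv4-79 had 1.17, 2.77 and 3.03 CPM in cGAMP libraries and 7.99, 9.86 and 7.77 CPM in IgG libraries, a log2 fold change of -1.84 ± 0.26 (adjusted p = 5.49e-07). Igkv4-79 is 96.1% identical to Igkv4-78, and only 36.2% of its windows were unique, so its counts are uncertain. Igkv6-14 had 5.01, 1.96 and 6.06 CPM in cGAMP libraries and 16.0, 15.3 and 13.4 CPM in IgG libraries, a log2 fold change of -1.76 ± 0.21 (adjusted p = 1.32e-08). The groups did not overlap for either segment, again by the rule for naming. Among leading segments, Igkv5-39, Igkv1-110, Igkv4-55 and Igkv1-135 fell as well, by 0.40, 0.48, 0.68 and 0.29 on the log2 scale (adjusted p = 4.24e-07, 9.93e-10, 1.02e-10 and 0.00754). The fall of Igkv1-135 was not called without the first cGAMP library, where it was -0.17 (adjusted p = 0.159). Igkv1-117 rose by 0.20 ± 0.05 (adjusted p = 0.00735), which was 0.16 and no longer called without the third IgG library (adjusted p = 0.0999) and 0.08 with libraries scaled on their totals alone (adjusted p = 0.329). Igkv10-96 and Igkv6-15 differed from IgG by -0.12 and -0.19 (adjusted p = 0.243 and 0.0682). The difference of Igkv6-15 was called without the first anti-IL-35 library, at -0.22 (adjusted p = 0.0233), and without the third, at -0.19 (adjusted p = 0.045), in a fit where all libraries share one estimate of the spread. It was also called with libraries scaled on their totals alone, at -0.31 (adjusted p = 0.00175), with no filter on low counts, at -0.23 (adjusted p = 0.0216), and in a fit of only the groups compared, at -0.22 (adjusted p = 0.0145). Igkv10-96 was called with library totals alone, at -0.23 (adjusted p = 0.00548).

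With anti-IL-35 most kappa V segments fell in level, together with Igkc. Of the 96 segments, 65 fell and 9 rose, where 9.32% of all genes fell and 15.7% rose. The median log2 fold change was -0.77 over the segments and -0.024 over all genes tested. The median was close to that of Igkc. In usage, which takes the common fall away, the segments were split evenly, with 34 higher and 34 lower. On that scale 77.1% of all genes were called either way, because genes outside the locus then move against the Igkv total. Of the segments, 43 were called in the same direction on both scales and 11 in opposite directions.

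The clearest rise with anti-IL-35 was in Igkv4-62. It had 43.8, 43.7 and 46.7 CPM in anti-IL-35 libraries, against 3.77, 3.31 and 4.06 CPM in IgG libraries. Its log2 fold change was 3.59 ± 0.19 (adjusted p = 3.85e-21). In usage it was 4.42 ± 0.18 (adjusted p = 1.85e-27), as the segment took 1.95 ± 0.0569% of Igkv counts in anti-IL-35 libraries and 0.0905 ± 0.0105% in IgG libraries (SD, n = 3 each). Igkv12-98 had 40.9, 29.9 and 34.7 CPM in anti-IL-35 libraries, against 11.0, 8.56 and 9.60 CPM in IgG libraries. The log2 fold change of this segment, whose windows were all unique, was 1.86 ± 0.14 (adjusted p = 3.18e-15). Igkv1-133 had 8.00, 8.77 and 7.79 CPM in anti-IL-35 libraries and 1.88, 3.07 and 2.34 CPM in IgG libraries, a log2 fold change of 1.74 ± 0.25 (adjusted p = 1.5e-07). Igkv4-90 had 6.52, 8.68 and 9.09 CPM in anti-IL-35 libraries and 2.60, 3.37 and 3.03 CPM in IgG libraries, a log2 fold change of 1.43 ± 0.26 (adjusted p = 2.32e-05). These segments were thus higher although the locus as a whole was lower. That no library of one group overlapped with the other was a condition for naming them.

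At the other end, several segments were nearly absent from anti-IL-35 libraries. Igkv14-130 had 12, 11 and 0 counts in anti-IL-35 libraries, against 118, 111 and 101 counts in IgG libraries. The log2 fold change was -4.09 ± 0.38 (adjusted p = 1.51e-12). Igkv8-16 had 6, 13 and 10 counts in anti-IL-35 libraries, against 69, 119 and 82 counts in IgG libraries, a log2 fold change of -3.47 ± 0.37 (adjusted p = 6.7e-11). Both remained in clear use in the cGAMP and combination libraries, where Igkv14-130 had 80 to 201 counts and Igkv8-16 had 65 to 177 counts. Igkv4-57-1 had 28.7, 26.9 and 21.1 CPM in anti-IL-35 libraries, against the IgG levels given above, a log2 fold change of -3.34 ± 0.08 (adjusted p = 1.26e-34). Igkv1-99 had 2.65, 2.20 and 0.727 CPM in anti-IL-35 libraries, against 16.9, 14.4 and 16.6 CPM in IgG libraries, a log2 fold change of -3.09 ± 0.22 (adjusted p = 1.14e-15). All 4 of these segments fell in usage too, by 3.27, 2.63, 2.50 and 2.26 on the log2 scale in the order named.

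The leading segments show how level and usage part in this comparison. Igkv10-96 had 152, 137 and 135.4 CPM in anti-IL-35 libraries, against 160.7, 170.7 and 168 CPM in IgG libraries. Its level fell by 0.24 ± 0.06 on the log2 scale (adjusted p = 0.00187), while its usage rose by 0.60 ± 0.06 (adjusted p = 7.34e-13). Igkv6-15 had 85.2, 80.9 and 76.8 CPM in anti-IL-35 libraries, against 86.1, 95.2 and 90.4 CPM in IgG libraries. Its level differed by -0.16 ± 0.07 (adjusted p = 0.0886), or by -0.23 without the first anti-IL-35 library (adjusted p = 0.0248), and its usage rose by 0.68 ± 0.07 (adjusted p = 4.51e-12). Its level was also called lower with library totals alone, at -0.29 (adjusted p = 0.000984), and with no filter on low counts, at -0.19 (adjusted p = 0.0385). Igkv1-117 and Igkv1-110 fell in level by 0.58 and 0.59 (adjusted p = 1.27e-12 and 3.05e-13) and rose in usage by 0.26 and 0.25 (adjusted p = 5.36e-05 and 5.72e-05). So these segments fell less than the locus, or did not pass the test for a fall. Igkv5-39, Igkv3-4 and Igkv4-55 fell on both scales, with usage changes of -0.74, -0.63 and -0.40 (adjusted p = 1.27e-15, 9.19e-15 and 1.6e-06).

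With the combination the total was near that of IgG and the mix again differed. There were 31 segments that rose and 25 that fell, where 15.7% of all genes rose and 7.5% fell. The median log2 fold change was 0.05 over the segments and -0.019 over all genes tested. In usage 27 were higher and 34 lower, where 35.7% of all genes were called either way. Igkv9-129 had 125, 155 and 150 counts in combination libraries, against 6, 5 and 2 counts in IgG libraries, the largest rise among the named segments. Its log2 fold change was 4.86 ± 0.53 (adjusted p = 2.3e-10). It was low in the other groups too, with 6, 11 and 36 counts in cGAMP libraries and 10, 7 and 2 counts in anti-IL-35 libraries. Igkv4-58 had 108.3, 106.3 and 105 CPM in combination libraries, against 23.9, 26.3 and 26.0 CPM in IgG libraries, a log2 fold change of 2.07 ± 0.10 (adjusted p = 1.58e-22). Its share was 2.29 ± 0.0315% in combination libraries and 0.618 ± 0.0281% in IgG libraries (SD, n = 3 each). Igkv1-133 had 10.4, 9.36 and 10.0 CPM in combination libraries, against the IgG levels given above, a log2 fold change of 2.02 ± 0.25 (adjusted p = 5.13e-09).

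With the same minimum of 5 CPM, the largest falls with the combination were in Igkv4-63, Igkv4-57-1, Igkv8-21 and Igkv12-41. Igkv4-63 had 10.3, 8.19 and 9.55 CPM in combination libraries, against 56.3, 69.1 and 66.8 CPM in IgG libraries. Its log2 fold change was -2.78 ± 0.12 (adjusted p = 2.12e-24). Anti-IL-35 libraries had 9.69, 9.50 and 6.18 CPM of it and cGAMP libraries had 83.2, 92.0 and 93.9 CPM, so the segment was low in both groups that received the antibody. Igkv4-57-1 had 46.3, 50.5 and 55.7 CPM in combination libraries, a log2 fold change of -2.35 ± 0.08 against IgG (adjusted p = 3.3e-29). Igkv8-21 had 15.2, 15.0 and 15.4 CPM, a log2 fold change of -1.92 ± 0.13 (adjusted p = 1.39e-16). Igkv12-41 had 19.8, 16.6 and 17.1 CPM in combination libraries and 52.4, 59.6 and 51.4 CPM in IgG libraries, a log2 fold change of -1.61 ± 0.11 (adjusted p = 7.24e-17). All 3 combination libraries lay below all 3 IgG libraries for each of them, as the rule for naming required. Among leading segments Igkv12-46 had 56.9, 54.4 and 57.9 CPM in combination libraries, against 113.6, 107.9 and 110.1 CPM in IgG libraries. It fell by 0.97 ± 0.06 (adjusted p = 2.32e-17), and Igkv5-39 fell by 0.76 ± 0.06 (adjusted p = 1.95e-15). Igkv4-55, Igkv10-96, Igkv6-15 and Igkv1-135 differed from IgG by 0.17, 0.00, -0.03 and 0.00 on the log2 scale (adjusted p = 0.0574, 0.968, 0.825 and 0.983). The difference of Igkv4-55 was called without the first combination library, at 0.25 (adjusted p = 0.0066), and without the third anti-IL-35 library, at 0.17 (adjusted p = 0.0296). It was also called in a fit of only the groups compared, at 0.17 (adjusted p = 0.015). With libraries scaled on their totals alone, Igkv10-96 and Igkv6-15 were called lower, at -0.15 and -0.18 (adjusted p = 0.0429 and 0.0376).

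Set against cGAMP alone, the combination had Igkv3-4 at 13.3%, against 13.0% of Igkv counts in cGAMP libraries, and another mix behind it. Here 39 segments were higher and 18 lower with the combination, where 9.99% of all genes were higher and 4.83% lower. The median log2 fold change was 0.20 over the segments and -0.005 over all genes tested. In usage 37 were higher and 32 lower, where 29.9% of all genes were called either way. Igkv9-129 was higher in the combination, with the counts given above, by 2.86 ± 0.45 (adjusted p = 2.5e-06), and Igkv1-133 was higher by 2.53 ± 0.26 (adjusted p = 1.05e-10). Igkv1-133 had 1.41, 1.96 and 1.73 CPM in cGAMP libraries. Igkv7-33, the sole segment of its family, had 0, 7 and 1 counts in combination libraries, against 98, 116 and 158 counts in cGAMP libraries. Its log2 fold change was -5.70 ± 0.56 (adjusted p = 2.56e-11). It had 3, 7 and 0 counts in anti-IL-35 libraries and 62, 61 and 61 counts in IgG libraries, so it too was nearly absent wherever the antibody was given. Igkv4-63 was lower by 3.26 ± 0.12 on the log2 scale (adjusted p = 5.31e-26). Igkv1-110, at 260.2, 248.7 and 246.2 CPM in combination libraries and 136.8, 137.3 and 146.6 CPM in cGAMP libraries, was higher by 0.84 ± 0.05 (adjusted p = 7.29e-18). Igkv12-46 was lower by 1.48 ± 0.06 (adjusted p = 1.99e-23).

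Set against anti-IL-35 alone, the combination had more kappa V transcript of most kinds. Of the 96 segments, 65 were higher and 6 lower, where 3.67% of all genes were higher and 2.17% lower. The median log2 fold change was 0.81 over the segments and -0.0012 over all genes tested, and it was 0.92 for Igkc. In usage 28 were higher and 40 lower, and 84.4% of all genes were called either way on that scale. Igkv3-4 took 13.3% of the Igkv total in combination and 1.73% in anti-IL-35 libraries, which by itself lowers the usage of the other segments here. Igkv3-4 was higher by 3.96 ± 0.05 (adjusted p = 2.52e-45). Igkv9-129 and Igkv14-130 were higher by 4.60 ± 0.51 and 4.54 ± 0.38 (adjusted p = 1.42e-09 and 2.31e-13). Igkv14-130 had 151, 147 and 201 counts in combination libraries. Igkv4-62 was the segment most clearly lower, with 2.35, 2.40 and 2.71 CPM in combination libraries, against 43.8, 43.7 and 46.7 CPM in anti-IL-35 libraries. Its log2 fold change was -4.16 ± 0.20 (adjusted p = 5.04e-22). Igkv4-90 had 1.70, 1.67 and 1.66 CPM in combination libraries, against 6.52, 8.68 and 9.09 CPM in anti-IL-35 libraries, a log2 fold change of -2.27 ± 0.28 (adjusted p = 2.23e-08). Igkv4-62 and Igkv4-90, which were higher with the antibody alone, were thus low when cGAMP was added.

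The interaction asks whether cGAMP moved a segment differently with the antibody (combination against anti-IL-35) than without it (cGAMP against IgG). Of the 96 segments, 60 had a positive interaction and 6 a negative one at an adjusted p under 0.05, where 3.62% of all genes were positive and 6.78% negative. The median was 1.19 over the segments, 0.91 for Igkc and -0.019 over all genes tested. In usage 36 were positive and 34 negative, and 76.1% of all genes were called on that scale. Igkv14-130 and Igkv8-21 had the largest positive values among the named segments, at 4.79 ± 0.48 (adjusted p = 5.67e-11) and 4.07 ± 0.21 (adjusted p = 1.31e-20). For Igkv8-21, cGAMP libraries were far below IgG libraries, whereas combination libraries, at 15.2, 15.0 and 15.4 CPM, were close to anti-IL-35 libraries, at 15.5, 12.4 and 10.6 CPM. Among the named segments Igkv4-62 and Igkv4-90 had the most negative values, at -5.02 ± 0.28 (adjusted p = 2.42e-19) and -3.07 ± 0.39 (adjusted p = 3.02e-08). Igkv4-62 had 3.76, 8.80 and 7.48 CPM in cGAMP libraries, against 3.77, 3.31 and 4.06 CPM in IgG libraries. It was called higher with cGAMP alone (0.86 ± 0.21, adjusted p = 0.00196), though the first cGAMP library lay within the range of the IgG libraries. It was below anti-IL-35 when cGAMP was added. Igkv3-4 had an interaction of 1.67 ± 0.07 in level (adjusted p = 9.79e-25) and of 0.66 ± 0.07 in usage (adjusted p = 2.44e-11).

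The effect of cGAMP on usage without the antibody (cGAMP against IgG) and with it (combination against anti-IL-35) uses no library in common. Among the segments, 61 were called in the first comparison and 68 in the second. Of all genes tested, 12% were called in the first and 84.4% in the second on this scale. The adjusted threshold was thus looser in the second, and the counts of calls are not alike. They were called in the same direction in both for 30 segments, 13 higher and 17 lower, and in opposite directions for 17 segments. Igkv3-4 was higher in both, by 2.28 ± 0.05 and 2.94 ± 0.05. Igkv4-61 was higher without the antibody, by 1.69 ± 0.12, and lower with it, by -1.04 ± 0.12 (adjusted p = 4.27e-16 and 8.26e-11). Across the segments Pearson's r between both effects was -0.0894, as a description over segments that share libraries and the same total. This r includes segments with no count in a whole group, whose large fitted fold changes depend on the prior count. The part of those segments in r was not tested, so r does not decide whether both effects are related.

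**Figure D3:**
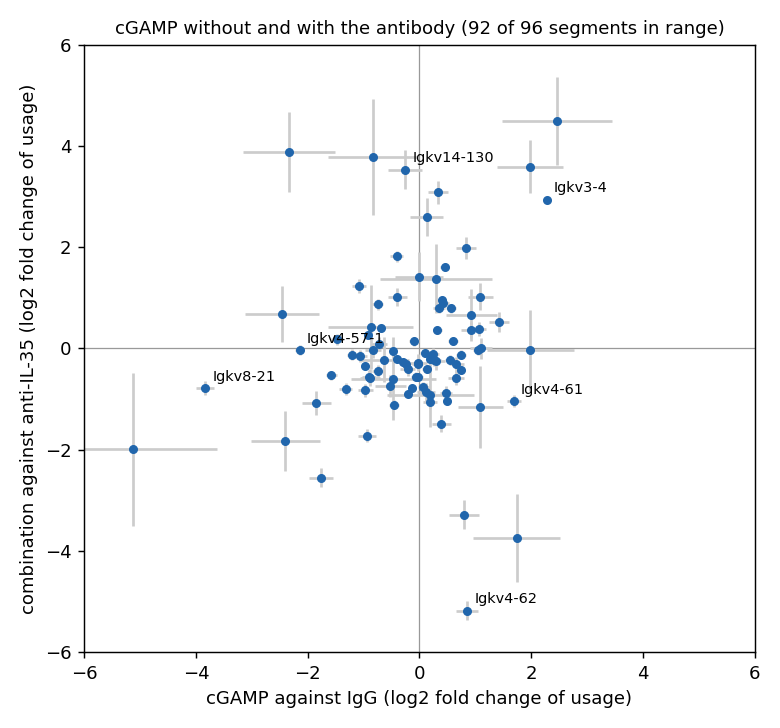
Log2 fold change of usage with cGAMP alone (cGAMP against IgG, horizontal) and with the antibody present (combination against anti-IL-35, vertical). Points are segments, lines are standard errors, and 92 of 96 segments lie within the axes. Igkv3-4 is high on both axes (2.28 and 2.94), and Igkv4-62 is positive on the horizontal axis and at -5.18 on the vertical axis.

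By V family, the number after Igkv, shares of all Igkv counts differed between the groups. The 99 segments fell into 20 families, and family 4, with 28 segments, was the largest. Family 3, of 8 segments, took 19.7 ± 0.0617% of Igkv counts in cGAMP libraries, 7.20 ± 0.147% in anti-IL-35 libraries, 20.6 ± 0.374% in combination libraries and 8.41 ± 0.112% in IgG libraries (SD, n = 3 each). Its other segments without Igkv3-4 took 6.38% to 6.77%, 5.31% to 5.69%, 7.02% to 7.50% and 5.66% to 5.79% in the same order of groups. Family 4 took 17.5 ± 0.362% in cGAMP libraries, 18.3 ± 0.439% in anti-IL-35 libraries and 17.4 ± 0.613% in combination libraries, against 22.5 ± 0.299% in IgG libraries (SD, n = 3 each). It was lower in all 9 treated libraries than in any IgG library. Most of this gap lay in Igkv4-57-1, which took 6.32% of Igkv counts in IgG libraries. That segment took 1.44% in cGAMP, 1.11% in anti-IL-35 and 1.09% in combination libraries, so the family as a whole need not have fallen. Family 6 took 13.1 ± 0.484% in anti-IL-35 libraries, against 6.52 ± 0.158% in cGAMP, 8.48 ± 0.180% in combination and 9.03 ± 0.243% in IgG libraries (SD, n = 3 each). Family 10, led by Igkv10-96, took 7.88 ± 0.521% in anti-IL-35 libraries and 4.73% to 5.56% on average in the other groups. Family 12 took 3.99 ± 0.0368% in combination libraries, against 6.78 ± 0.217% in cGAMP, 6.72 ± 0.199% in anti-IL-35 and 6.40 ± 0.126% in IgG libraries (SD, n = 3 each). Family 19, which is a single segment, took 1.66 ± 0.0395% in cGAMP, 1.37 ± 0.0922% in anti-IL-35 and 1.64 ± 0.0392% in combination libraries, against 3.14 ± 0.0752% in IgG libraries (SD, n = 3 each). Family 1 stayed within 12.5% to 15.1% on average in all groups. Family sums carry no test.

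**Figure D4:**
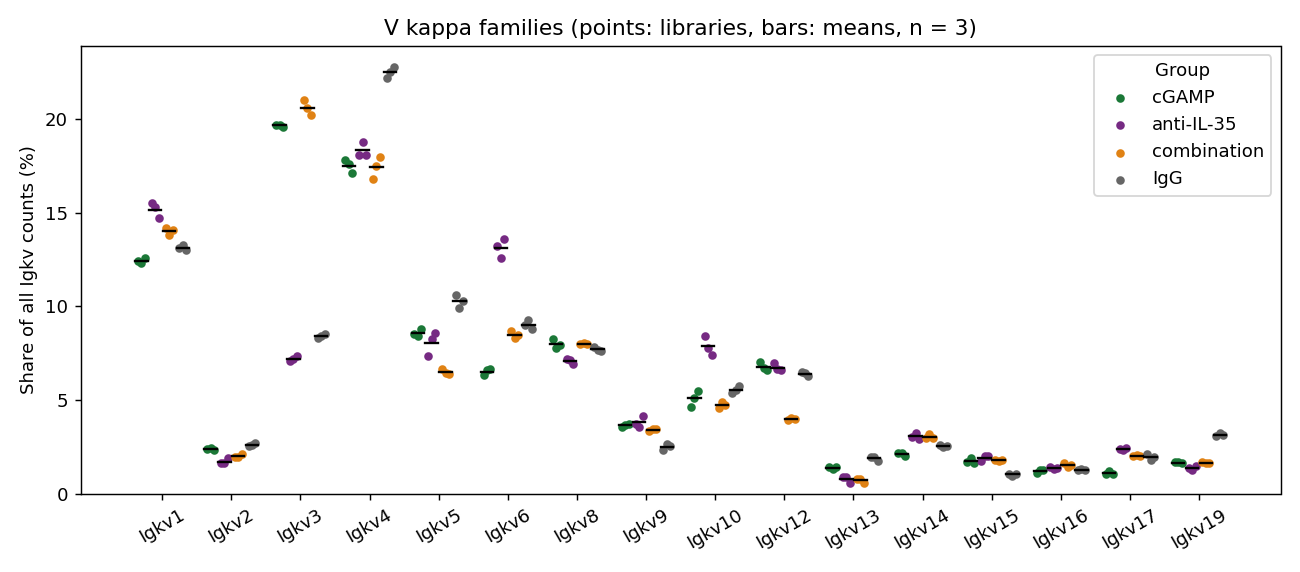
Share of all Igkv counts (%) by V family, for families with at least 1% in a group. Points are libraries and bars are means of 3, in the order cGAMP, anti-IL-35, combination and IgG. Family 3 averaged 19.7% in cGAMP and 20.6% in combination libraries, against 7.20% in anti-IL-35 and 8.41% in IgG libraries, and family 6 was highest in anti-IL-35 libraries at 13.1%.

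The segments lie on chromosome 6 between 67555636 and 70704177 (GRCm38, RefSeq), upstream of the first J segment, Igkj1, at 70722562 and of Igkc at 70726435 to 70726966. Igkv3-4, at 70671789 to 70672377, is 50.2 kb from Igkj1. Of the segments, 36 are on the plus strand, the orientation of Igkc, and 62 on the minus strand. Segments in the orientation of Igkc are joined with loss of the DNA between, and the others with its inversion. The plus-strand share of Igkv counts was 45.2% to 45.6% in cGAMP libraries, 40.3% to 41.0% in anti-IL-35 libraries and 49.9% to 51.0% in combination libraries, against 35.8% to 36.0% in IgG libraries. Without Igkv3-4 the shares were 36.8% to 37.6%, 39.2% to 40.0%, 42.3% to 43.3% and 34.1% in the same order. The treated libraries stayed above the IgG libraries, by less than before in the cGAMP and combination groups, and cGAMP then lay below anti-IL-35. The 39 segments within 1 Mb of Igkj1 took 48.8% to 49.6% of Igkv counts in cGAMP, 39.6% to 41.0% in anti-IL-35, 46.1% to 47.2% in combination and 41.1% to 41.9% in IgG libraries. Without Igkv3-4 these became 41.2% to 42.1%, 38.5% to 40.0%, 37.9% to 38.9% and 39.5% to 40.4%. So distance from the J segments separated the groups much less once that segment was left out.

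**Figure D5:**
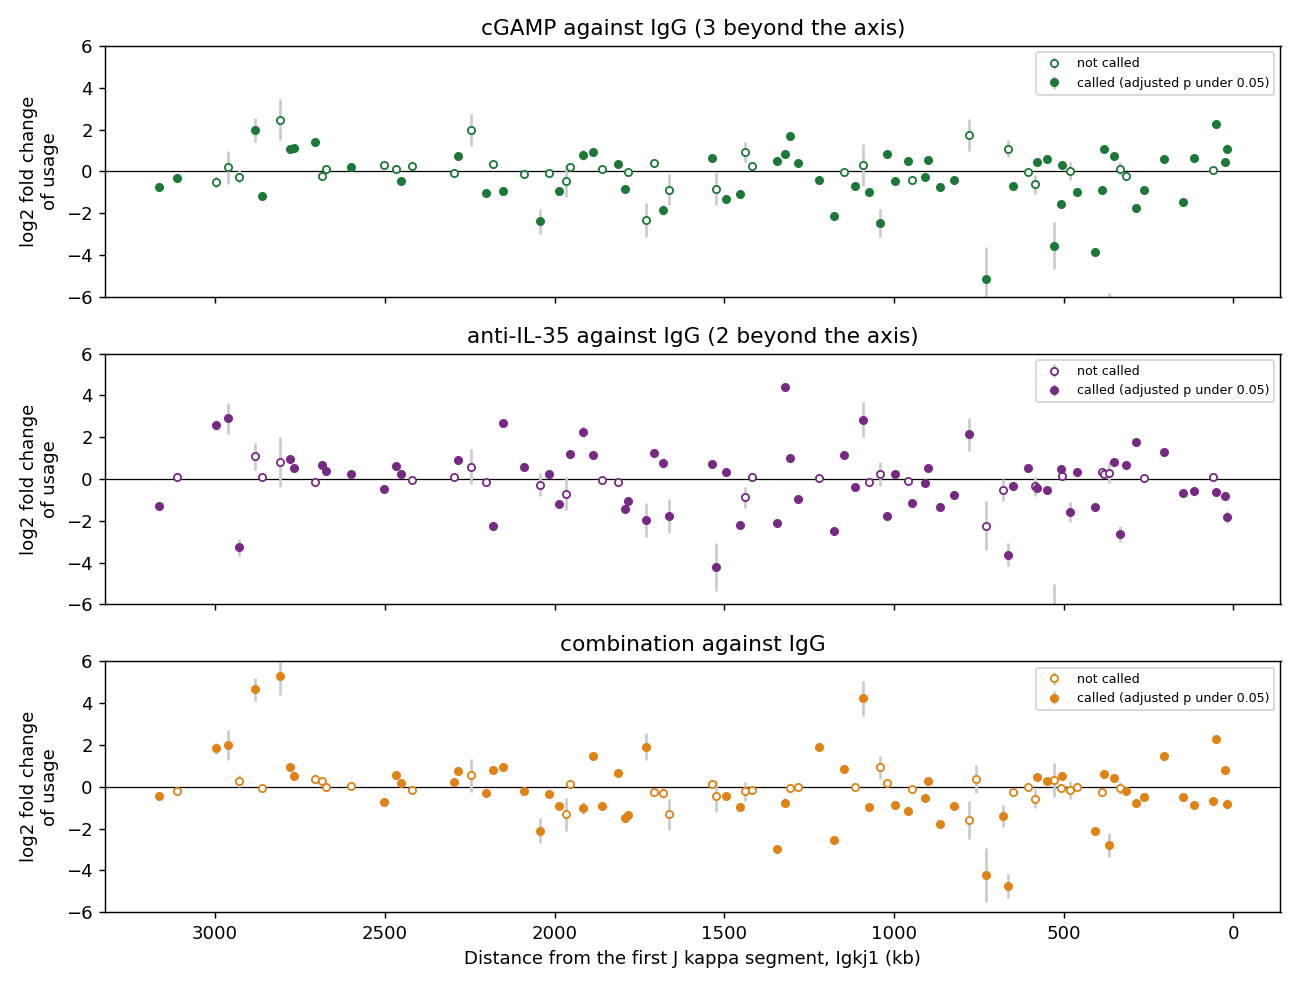
Log2 fold change of usage against IgG for each segment with cGAMP (top), anti-IL-35 (middle) and the combination (bottom), by distance from Igkj1 (kb, the J segments at right). Filled points were called at an adjusted p under 0.05, lines are standard errors, and 93, 94 and 96 of 96 segments lie within the axes. Segments with higher and lower usage lie next to each other along the whole locus in each panel.

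The distance between 2 libraries was taken as the share of Igkv counts that would have to move between segments to make both mixes equal. Libraries of the same group differed by 3.07 to 5.96 percentage points over 12 pairs. Libraries of different groups differed by 15.7 to 28.8 percentage points over 54 pairs, so no pair from different groups was as close as any pair of the same group. The closest groups were the combination and cGAMP, at 15.7 to 17.0 percentage points, and the farthest were cGAMP and anti-IL-35, at 26.8 to 28.8. With Igkv3-4 left out, pairs of the same group differed by 3.25 to 6.01 and pairs of different groups by 17.2 to 24.9 percentage points. Without it the combination lay at 17.2 to 19.2 percentage points from anti-IL-35, 17.9 to 19.6 from cGAMP and 20.1 to 21.0 from IgG.

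Some of the rarer segments were missing from whole groups. Igkv5-37 had no count in any cGAMP or anti-IL-35 library, 69, 10 and 67 counts in combination libraries, and 24, 37 and 29 counts in IgG libraries. With 3 counts over the group taken as the floor for such a group, IgG was at least 30.4-fold higher than cGAMP and at least 39.5-fold higher than anti-IL-35. Like the ratios below, these use unscaled library totals, and they would be lower with TMM scaling. Igkv8-34 had no count in cGAMP libraries, 19, 45 and 15 counts in anti-IL-35 libraries, and 23, 24 and 32 counts in combination libraries, against 43, 69 and 53 counts in IgG libraries. IgG was at least 55.7-fold higher than cGAMP. Igkv8-26 had no count in anti-IL-35 libraries and 0, 3 and 0 counts in cGAMP libraries, against 22, 19 and 26 counts in combination libraries and 14, 13 and 15 counts in IgG libraries. IgG was at least 18.4-fold higher than anti-IL-35. These 3 segments and those of the next sentences were singled out after their values were seen, as segments with 3 counts or fewer in a group. Igkv8-18 had 0, 1 and 0 counts in cGAMP libraries, against 56, 35 and 60 counts in IgG libraries. In anti-IL-35 libraries it had 40, 36 and 50 counts. Igkv8-26 and Igkv8-18 are 98.1% identical, with 72.2% and 73.2% of windows unique, so counts of this pair are uncertain. Igkv18-36 had 1, 0 and 0 counts in cGAMP libraries and 0, 0 and 3 counts in combination libraries, against 27, 11 and 12 counts in IgG libraries. Igkv4-73, Igkv4-71, Igkv4-60 and Igkv3-3 also had such a group. Igkv4-73 and Igkv4-60 are annotated as pseudogenes in GENCODE.

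At the threshold of 30 counts, the segments just inside were Igkv4-60 with 35, Igkv3-3 with 38 and Igkv4-71 with 43 counts over the 12 libraries. Just outside were Igkv3-9 with 25 and Igkv1-131 with 12 counts, while Igkv1-35 and Igkv13-71-1 had none. At these counts no comparison between groups can be made.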

How the data were processed

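The deposited values were raw counts per gene, which the authors made on build mm10. The submitters' processing notes name featureCounts, STAR 2.7.7a and SAMtools 1.15. Libraries were made with a NEBNext Ultra kit, per the labels. The sources used here give no annotation, strand setting or treatment of reads that match several places. Library totals ran from 12811353 to 22217766 counts. Every column was mapped to a group, and all 12 libraries were used. Chi-square values between libraries of the same group, divided by their degrees of freedom, were 3.27 to 11.8, where counting error alone would give 1.

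All genes entered a model of their counts in edgeR 4.0.16 under R 4.3.3 (filterByExpr on groups, minimum count 10, then TMM and robust quasi-likelihood tests). A single fit held the 4 groups, with 14182 genes, 8 residual degrees of freedom and a common biological coefficient of variation of 0.0958. The filter left 96 of the 99 segments. There were 6 comparisons, 3 with IgG, 2 of the combination with a single agent, and the interaction. P-values were adjusted by Benjamini-Hochberg over all genes tested, with calls at an adjusted p under 0.05, and all of them come from edgeR. Usage came from the same fit with libraries scaled on their summed Igkv counts. Fits were tested on simulated data. V exons from GENCODE M21 were aligned with Biopython 1.88.

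Segments were named by rule. The rule took the 10 with the highest mean share and the leading segment of each group. It also took, among called segments whose libraries did not overlap and that reached a mean of 5 CPM, the 4 largest changes in each direction against IgG and the 2 largest in the other comparisons, with overlap allowed in the interaction. The segments, lists and rules were chosen with earlier results of these data known. Alternatives were RLE size factors, library totals alone, Igkv totals, DESeq2 1.42.0, no filter, a stricter filter (1 CPM in 6 libraries), only the groups compared, a replicate block, leaving out each library, and minimum totals of 1 and 100 counts.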

Additional observations from a re-analysis of the deposited data

Results flagged for a closer look

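For 21 of the 28 named segments that were tested, the effect of cGAMP with the antibody differed from its effect without it, by an edgeR test of the interaction at an adjusted p under 0.05. Over all genes tested, 3.62% were called positive and 6.78% negative. The named segments were chosen in part for their largest changes and interactions, so the count describes them and supports nothing further. Values are interactions on the log2 scale. They were positive for 17 segments. These were Igkv14-130 at 4.79, Igkv8-21 at 4.07, Igkv1-99 at 3.76, Igkv8-16 at 3.47, Igkv4-58 at 3.24 and Igkv4-57-1 at 3.12. Igkv9-129 was at 2.59, Igkv4-55 at 2.10, Igkv4-79 at 1.78, Igkv3-4 at 1.67, Igkv1-110 at 1.43, Igkv12-41 at 1.31 and Igkv5-39 at 1.22. Igkv1-135 was at 1.04, Igkv1-117 at 0.61, Igkv10-96 at 0.36 and Igkv6-15 at 0.33. They were negative for 4 segments, Igkv4-62 at -5.02, Igkv4-90 at -3.07, Igkv4-61 at -1.73 and Igkv12-46 at -0.53. The interaction of Igkc was 0.91, and the median over all segments tested was 1.19. In usage, relative to the Igkv total, 15 of the 21 were called in the same direction and 3 turned, Igkv1-117 at -0.40, Igkv10-96 at -0.65 and Igkv6-15 at -0.68. Of 15 B cell genes 12, and of 12 plasma cell genes 6, were called with a positive interaction too, and their part in these values was not tested.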

How the results depend on the processing

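The numbers of segments called in each comparison stayed within 1.5 times the reported ones with RLE size factors, library totals alone, DESeq2, no filter, the stricter filter, only the groups compared, the replicate block and each library left out. With the replicate block, cGAMP against IgG gave 27 segments higher and 34 lower. Same-numbered libraries of different groups did not deviate together (correlations of -0.0247 to 0.038 over 18 pairs, none above 0.1), and 5 of 12 libraries correlated best with their own number. Scaling on Igkv totals moved the counts by its construction. It gave 34 higher and 34 lower for anti-IL-35 against IgG, 32 lower for the combination against cGAMP, 28 higher and 40 lower for the combination against anti-IL-35, and 36 positive and 34 negative interactions. On that scale anti-IL-35 against IgG turned to 0.26 for Igkv1-117, 0.25 for Igkv1-110, 0.60 for Igkv10-96, 0.68 for Igkv6-15 and 0.09 for Igkv1-135. For the combination against IgG, Igkv10-96 turned to -0.18 on that scale and to -0.15 with library totals alone. The Igkv total includes Igkv3-4, which took 13.3% of it in combination and 2.68% in IgG libraries. The part of Igkv3-4 in the usage change of Igkv10-96 was not tested. Library totals alone moved the median of all genes for the combination against IgG to -0.17. Without Igkv3-4, a choice made after seeing the data, Igkv took 0.3556% of counts in cGAMP, 0.221% in anti-IL-35, 0.3883% in combination and 0.4279% in IgG libraries. The effective number became 39.92, 39.15, 40.12 and 36.75 in the same order. Leaving out each family's leading segment moved 59 of 64 family shares by more than 1 SD. Segments with few counts limit the precision, and the fitted fold changes of segments at or near 0 in a group depend on the prior count and are no bounds.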

Other observations

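The J segments of the kappa locus were rare in the counts. Igkj1 to Igkj5 averaged 1.22 to 5.91 CPM over the groups, beside Igkc at 2945 to 5569 CPM. Igkj4 fell by 1.20 ± 0.32 on the log2 scale with anti-IL-35 (adjusted p = 0.00337), and Igkj1 fell by 1.17 ± 0.41 (adjusted p = 0.031). None of the 5 passed the test with cGAMP or with the combination. The 10 genes that recombine and edit antibody loci summed to 98.2 to 108 CPM on average in each group. Of 9 tested genes of that list, 1 fell with anti-IL-35 (Prkdc, a kinase of DNA end joining, at -0.42 ± 0.09, adjusted p = 0.000284), and none changed with cGAMP or the combination. Rag2, which cuts the V and J signals together with Rag1, had no count in the cGAMP, anti-IL-35 and combination groups. It had some counts in the IgG group. Only 9 of the 10 genes of this list were tested, so the lack of a call for Rag2 shows nothing about its level. Pou2af1, a B cell coactivator of octamer promoters, fell by 0.76 ± 0.06 with anti-IL-35 (adjusted p = 5.3e-14). Spi1, an Ets factor of myeloid and B cells that binds the kappa enhancer, rose in all treated groups, by 0.29 ± 0.05 in cGAMP, 1.09 ± 0.05 in anti-IL-35 and 1.02 ± 0.05 in combination libraries (adjusted p = 1.82e-05, 8.52e-24 and 1.49e-22). In the list of octamer and enhancer factors, 1 of 10 rose with cGAMP, 2 rose and 4 fell with anti-IL-35, and 2 rose and 1 fell with the combination. Of all genes tested, 9.37% rose with cGAMP, 15.7% rose and 9.32% fell with anti-IL-35, and 15.7% rose and 7.5% fell with the combination. The numbers of rises in this list were thus near those shares.

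Heavy chain constant genes did not move as a block. With anti-IL-35, Ighm fell by 1.63 ± 0.03 and Ighg3 fell by 2.20 ± 0.05 (adjusted p = 4.35e-41 and 6.28e-35), while Igha and Ighg1 rose by 0.36 ± 0.03 and 0.27 ± 0.06 (adjusted p = 6.99e-13 and 0.000138). With cGAMP, Igha fell by 0.96 ± 0.03 (adjusted p = 9.96e-28) and Ighm rose by 0.18 ± 0.03 (adjusted p = 1.43e-06). With the combination, Ighg1 rose by 1.13 ± 0.06 (adjusted p = 4.26e-22) and Igha fell by 0.50 ± 0.03 (adjusted p = 1.95e-17). Of 9 lambda genes, 7 fell with anti-IL-35. T cell genes summed to 391 to 406 CPM in cGAMP, 298 to 303 CPM in anti-IL-35, 311 to 334 CPM in combination and 416 to 424 CPM in IgG libraries. Of these 7 genes, 1 fell with cGAMP, and all 7 fell in both groups that received the antibody. Of 6 germinal centre genes, 3 rose with cGAMP, 2 rose and 1 fell with anti-IL-35, and 2 rose with the combination. Of 10 NK cell genes, 5 rose with cGAMP, 2 rose and 1 fell with anti-IL-35, and 5 fell with the combination. Beside these lists, 9.37% of all genes tested rose and 3.56% fell with cGAMP. With anti-IL-35 15.7% rose and 9.32% fell, and with the combination 15.7% rose and 7.5% fell.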
